A study of Vitis rotundifolia with 18 samples.

Results

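Berries of the muscadine grape, Vitis rotundifolia, were compared between the cultivars Noble and Carlos at veraison. The comparison rests on 6 of the 18 libraries of the series, namely the 3 labelled Noble and the 3 labelled Carlos at stage E-L 35, chosen by their labels alone. The E-L scale numbers the growth stages of the grapevine, and the series also holds 3 libraries of each cultivar at E-L 32 (bunch closure) and at E-L 38 (maturity, or harvest). Both groups were berries from 1 research station in Citra, no treatment is given for either, and the cultivar name is what the labels give to set them apart. The labels do not say how many vines or berries made up a sample, or whether replicates came from separate vines. The p-values therefore measure the spread between libraries, which may be technical. In the main fit that spread was estimated over all 18 libraries together, not over the 6 of E-L 35 alone.

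Veraison is the point at which a grape berry turns from growth to ripening: the flesh softens, hexoses begin to accumulate, malate begins to fall, and dark cultivars begin to lay down anthocyanins in the skin. Berries of a cluster do not pass this point together, and the change within a berry is fast. Noble is a dark-skinned muscadine and Carlos a bronze one, so colour is the best known difference between them in ripe fruit.

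The deposited tables name genes by identifier only. No identifier among 27228 matched the 27334 genes of the reference table searched, so no gene name or function is given for any of them, and neither the berry tissue nor skin colour could be checked by marker genes. The results below therefore describe how many identifiers differed, by how much, and how the same identifiers behaved in the other stages. Levels are shares of the RNA in a berry sample, and fewer cells of a type and less RNA per cell cannot be told apart.

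Libraries at E-L 35 held 22554614 to 30719448 counts in Noble and 24043946 to 26957642 in Carlos. The replicates were not equally alike. Pearson correlations of log2 CPM (CPM is the rounded expected count over a common library total, after scaling by TMM, which evens out library composition) were 0.979 between Noble replicates 1 and 3, and 0.973 and 0.968 between replicate 2 and these. Carlos replicates 1 and 2 correlated at 0.991, and replicate 3 correlated at 0.922 and 0.920 with them, below the 0.954 between Noble replicate 2 and Carlos replicate 1. Noble replicate 2 and Carlos replicate 3 thus stood apart, and results are given with and without both. Even the closest replicates, Carlos 1 and 2, differed by more than counting noise, at a chi-square of 2.96 for each degree of freedom. At E-L 38, where 4130 genes were called between the labels (23.4% of genes), 1761 of the 1815 genes called at both E-L 35 and E-L 38 had opposite directions. Libraries of E-L 38 are therefore named by label only, as "under the Noble label" and "under the Carlos label". Whether cultivar names were exchanged at E-L 38 was not tested, and reading them exchanged would turn the sign of each difference given for that stage.

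The same 2 libraries had an unusual RNA composition. The 10 most abundant identifiers took 5.03%, 11.2% and 5.36% of counts in Noble replicates 1 to 3, and 5.84%, 5.76% and 29.6% in Carlos replicates 1 to 3. VIT_07s0005g03420, chosen after its values were known because it had the highest TPM (a level scaled by transcript length) in both libraries, stood at 18164 TPM in Noble replicate 2 and 3397 and 3921 TPM in Noble replicates 1 and 3. In Carlos it stood at 72742 TPM in replicate 3 and 3510 and 3360 TPM in replicates 1 and 2. Between the cultivars its log2 fold change of Noble over Carlos was -1.85 ± 1.01 (SE) and did not pass the test with edgeR (adjusted p = 0.22), and was -0.03 ± 0.50 without both libraries (adjusted p = 0.98).

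Libraries of E-L 35 were placed on a line drawn from the mean of the E-L 32 libraries (position 0) to the mean of the E-L 38 libraries (position 1), both cultivars together, over 12448 genes that changed between those stages. Noble libraries lay at 0.840, 0.706 and 0.745 for replicates 1 to 3, a mean of 0.764 ± 0.0689 (SD, n = 3). Carlos libraries lay at 0.842, 0.849 and 0.491, a mean of 0.727 ± 0.205 (SD, n = 3). The cultivars overlapped, and Carlos replicate 3 lay nearer to E-L 32 than any other E-L 35 library. The E-L 35 libraries did not set the ends of the line, but they entered the fit that chose its genes. The positions also come from the same 6 libraries as the comparison between the cultivars.

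**Figure D1:**
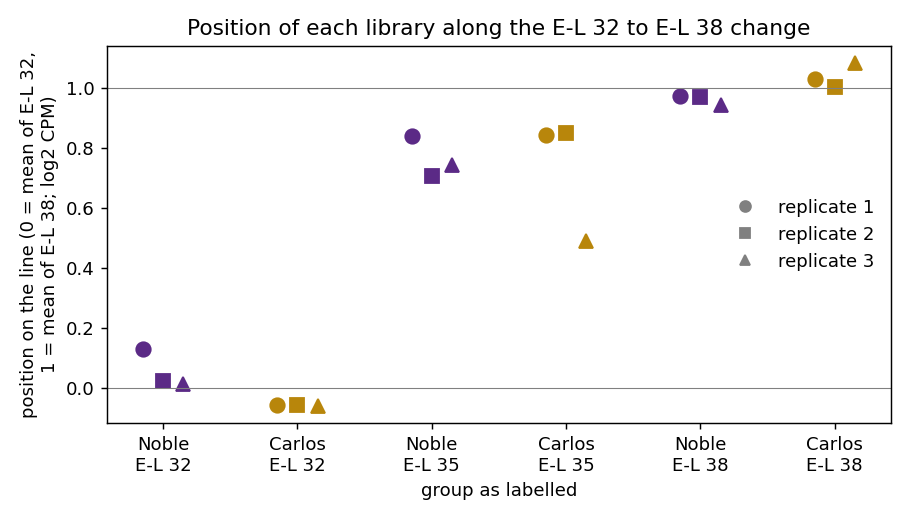
Position of each of the 18 libraries on the line from the mean of E-L 32 (0) to the mean of E-L 38 (1), by group as labelled; points are single libraries and symbols give the replicate number. Noble at E-L 35 spans 0.706 to 0.840, and Carlos at E-L 35 has libraries at 0.842 and 0.849 and another at 0.491.

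Genes far from the mean of the other 2 libraries of the group occurred in each library of E-L 35. Noble replicate 2 had 249 genes at 4-fold or more above the mean of its replicates and 101 at 4-fold or more below it. Noble replicate 1 had 8 such genes above and 201 below, and Noble replicate 3 had 135 and 126. Carlos replicate 3 had 993 above and 650 below, against 159 and 200 in Carlos replicate 1 and 153 and 247 in Carlos replicate 2, whose comparison means include replicate 3. By these totals Carlos replicate 3 stood out, and Noble replicate 2 only by its genes above. Of the genes above, 89 were shared by Noble replicate 2 and Carlos replicate 3, which is 35.7% of those in Noble replicate 2 and 8.96% of those in Carlos replicate 3. Of the genes below, 18 were shared, 17.8% and 2.77% of the same lists. As a background, Noble replicate 2 had 249 of all 17657 genes tested above and 101 below. Carlos replicate 3 had 993 and 650 of the same 17657. Across genes the deviations of these libraries correlated at r = 0.25, and with the change from E-L 32 to E-L 38 the deviation correlated at r = -0.21 for Noble replicate 2 and -0.53 for Carlos replicate 3. Genes are not independent replicates, and the libraries behind a deviation share their scaling.

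At veraison Noble and Carlos differed in 3356 of 17657 genes tested, with edgeR's quasi-likelihood test at an adjusted p under 0.05 (19.0%). Of these, 1722 were higher in Noble (9.75%) and 1634 were higher in Carlos (9.25%). The median size of the called differences was 0.89 on the log2 scale. A difference of 2-fold or more was found for 768 genes on the Noble side and 731 on the Carlos side, at 4-fold or more 317 and 328, and at 16-fold or more 91 (0.515% of genes) and 79 (0.447%). Calls were spread over the range of abundance: 230 of 2405 genes with a level under 1 CPM in both cultivars were called, 868 of 4900 at 1 to 10 CPM, 1690 of 7818 at 10 to 100 CPM and 568 of 2534 above 100 CPM. The level here is the mean of the higher cultivar.

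The libraries of the cultivars did not overlap in 2905 of the 3356 called genes (86.6%), where this held for 26.6% of all genes tested. Non-overlap was met by 1531 of the genes called higher in Noble and by 1374 of those called higher in Carlos. Expected counts that were not whole numbers in at least 1 library of E-L 35 occurred in 12.6% of called genes and in 10.7% of genes tested, so reads divided among similar genes touched a minority of both.

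Without Noble replicate 2 and Carlos replicate 3 the comparison called more genes from fewer libraries. With edgeR 5818 genes passed among 17862 tested (32.6%), 2994 higher in Noble (16.8%) and 2824 higher in Carlos (15.8%). A 2-fold or larger difference was found for 1408 genes on the Noble side and 1169 on the Carlos side, and a 16-fold one for 177 and 138. Of the 3356 genes called with all libraries, 3001 were called again and 0 of these had changed direction, 1559 higher in Noble and 1442 higher in Carlos. The calls shared by both fits were 89.4% of those with all libraries and 51.6% of those without both. Of the 2798 added calls among genes tested in both fits, 2646 had the same sign with all libraries.

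The spread within groups was smaller without these libraries, which follows from their choice as the libraries that stood apart. The median SD of log2 CPM per gene was 0.240 in Noble and 0.327 in Carlos with 3 libraries each, and 0.141 in Noble and 0.0778 in Carlos with 2 each. Median SDs of 3 and of 2 values are not directly comparable. With 3 libraries each, the median SD was 0.131 in Noble and 0.103 in Carlos at E-L 32. At E-L 38 it was 0.175 under the Noble label and 0.213 under the Carlos label. These are below the values at E-L 35 with 3 libraries, and the main fit shares its estimate of spread among all groups. The common biological coefficient of variation of the fit was 24.7% with all 18 libraries and 15.6% without both. Single libraries moved the number of calls as well. It was 1869 without Noble replicate 1 and 2166 without Noble replicate 3, each of which left Noble replicate 2 as 1 of 2 libraries, and 449 in a fit to the 6 libraries of E-L 35 alone, of which 282 were higher in Noble (62.8%, against 51.3% with all 18 libraries) and 167 in Carlos. A fit to the 4 libraries that remain without both, tried after the data were examined, called 6526 genes.

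**Figure D2:**
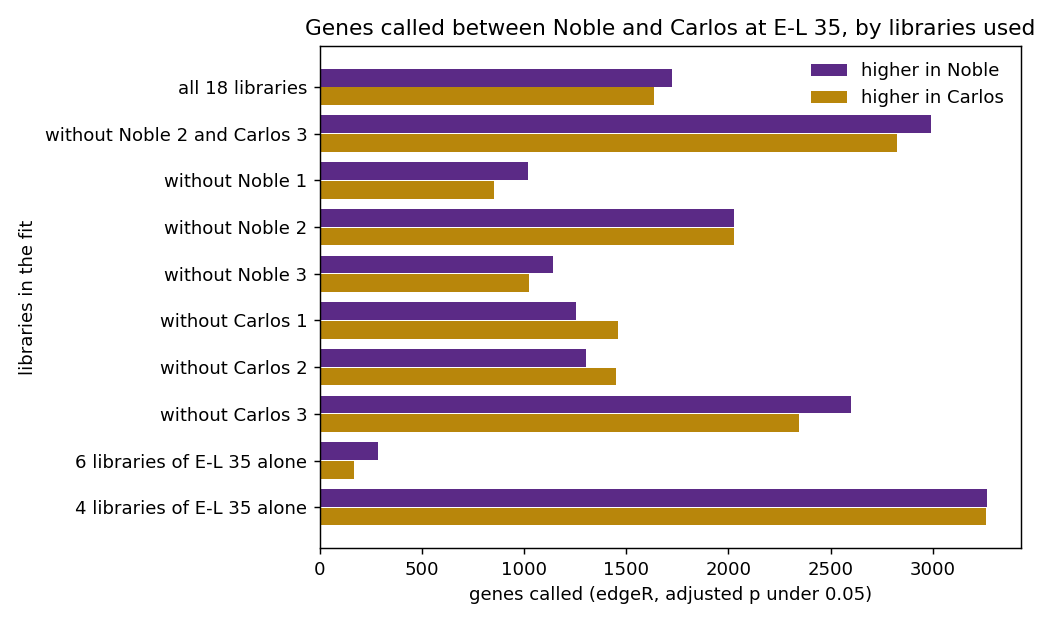
Number of genes called between the cultivars at E-L 35 (edgeR, adjusted p under 0.05) for different sets of libraries, with bars for those on the Noble side and those on the Carlos side. The total runs from 449 genes with the 6 libraries alone (282 on the Noble side and 167 on the Carlos side) to 6526 with the 4 that remain without the set-apart libraries (3267 and 3259).

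The identifiers with the largest differences were taken from 929 genes on the Noble side and 832 on the Carlos side that were called in the same direction with and without both libraries, did not overlap between cultivars and reached a mean of 10 CPM in a cultivar. The 2 with the highest fold change of Noble over Carlos are described first, then the 2 with the lowest. No others are described, because the reference table searched paired none of the identifiers with names.

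VIT_04s0008g04060 was abundant in Noble and nearly absent in Carlos. It stood at 1359, 886 and 1291 CPM in Noble replicates 1 to 3, and at 0.550, 0.486 and 0 CPM in Carlos replicates 1 to 3. The lowest Noble library thus lay far above the highest Carlos library. The log2 fold change was 11.68 ± 1.24 (SE, adjusted p = 5.6e-05, edgeR), and 11.30 ± 1.14 without both set-apart libraries (adjusted p = 1.9e-05), and its adjusted p ran from 1.5e-09 to 0.011 under the alternatives tried. The E-L 32 libraries of Noble already averaged 203 ± 46.4 CPM (SD, n = 3), while those of Carlos had 0 counts. At E-L 38 the pattern was turned round, at 0, 0 and 2.79 CPM under the Noble label and 1623, 1561 and 1118 CPM under the Carlos label. Its expected counts were not whole in 10 of the 18 libraries.

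VIT_18s0041g02440 was detected in Noble and not in Carlos at E-L 35 at the depth of these libraries. It stood at 14.7, 12.7 and 10.3 CPM in Noble, and had 0 counts in each Carlos library, where a floor of 3 counts over the group corresponds to 0.0431 CPM. It was at least 292-fold higher in Noble (adjusted p = 2.8e-06, edgeR), and at least 201-fold higher without both set-apart libraries. The bound was 185 without Carlos replicate 1, since fewer libraries then stand behind the floor. At E-L 32 its mean was 8.53 ± 0.890 CPM in Noble (SD, n = 3), with 0 counts in Carlos, and at E-L 38 it had 0 counts under the Noble label and 9.49 ± 1.09 CPM under the Carlos label. Its expected counts were whole numbers in all 18 libraries.

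VIT_19s0015g02680 and VIT_19s0093g00190 were lower in Noble, with 1 Carlos library close to the Noble level. VIT_19s0015g02680 stood at 4.87, 2.85 and 26.2 CPM in Noble replicates 1 to 3, and at 1389, 1397 and 28.3 CPM in Carlos replicates 1 to 3. Noble replicate 3 and Carlos replicate 3 nearly met, so the absence of overlap rests on a narrow margin. VIT_19s0093g00190 stood at 13.5, 5.70 and 48.6 CPM in Noble, and at 2710, 2727 and 57.6 CPM in Carlos, with the same libraries nearest to each other.

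The log2 fold change of VIT_19s0015g02680 was -6.38 ± 1.55 (SE) and that of VIT_19s0093g00190 was -6.34 ± 1.55, both with an adjusted p of 0.011 (edgeR). Without both set-apart libraries they were -6.49 ± 1.34 (adjusted p = 0.0021) and -6.46 ± 1.42 (adjusted p = 0.0034). Without Noble replicate 3 alone they were -7.93 and -7.58. The calls of both genes ended without Noble replicate 1 (adjusted p = 0.056 and 0.057) and in the fit to 6 libraries alone (0.11 and 0.10), in ranges over all alternatives of 5.4e-06 to 0.11 for VIT_19s0015g02680 and 1.9e-06 to 0.10 for VIT_19s0093g00190. Expected counts of both were not whole in 17 of the 18 libraries, so their levels depend on reads shared with similar genes. Whether they share reads with each other was not tested, so their parallel values are not independent results.

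These 2 genes were low in both cultivars at bunch closure. At E-L 32 VIT_19s0015g02680 averaged 4.60 ± 7.62 CPM in Noble, and 0.133 ± 0.0994 CPM in Carlos (SD, n = 3 each), with 13.4 CPM in Noble replicate 1 and under 1 CPM in the other Noble libraries. At E-L 38 it stood at 1409 ± 256 CPM under the Noble label and 13.6 ± 0.785 CPM under the Carlos label. VIT_19s0093g00190 followed the same course, at 10.8 ± 17.6 and 0.658 ± 0.165 CPM at E-L 32 and at 2909 ± 499 and 29.8 ± 2.21 CPM at E-L 38. At E-L 38 the group labelled Noble therefore had levels like those of Carlos replicates 1 and 2 at E-L 35.

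**Figure D3:**
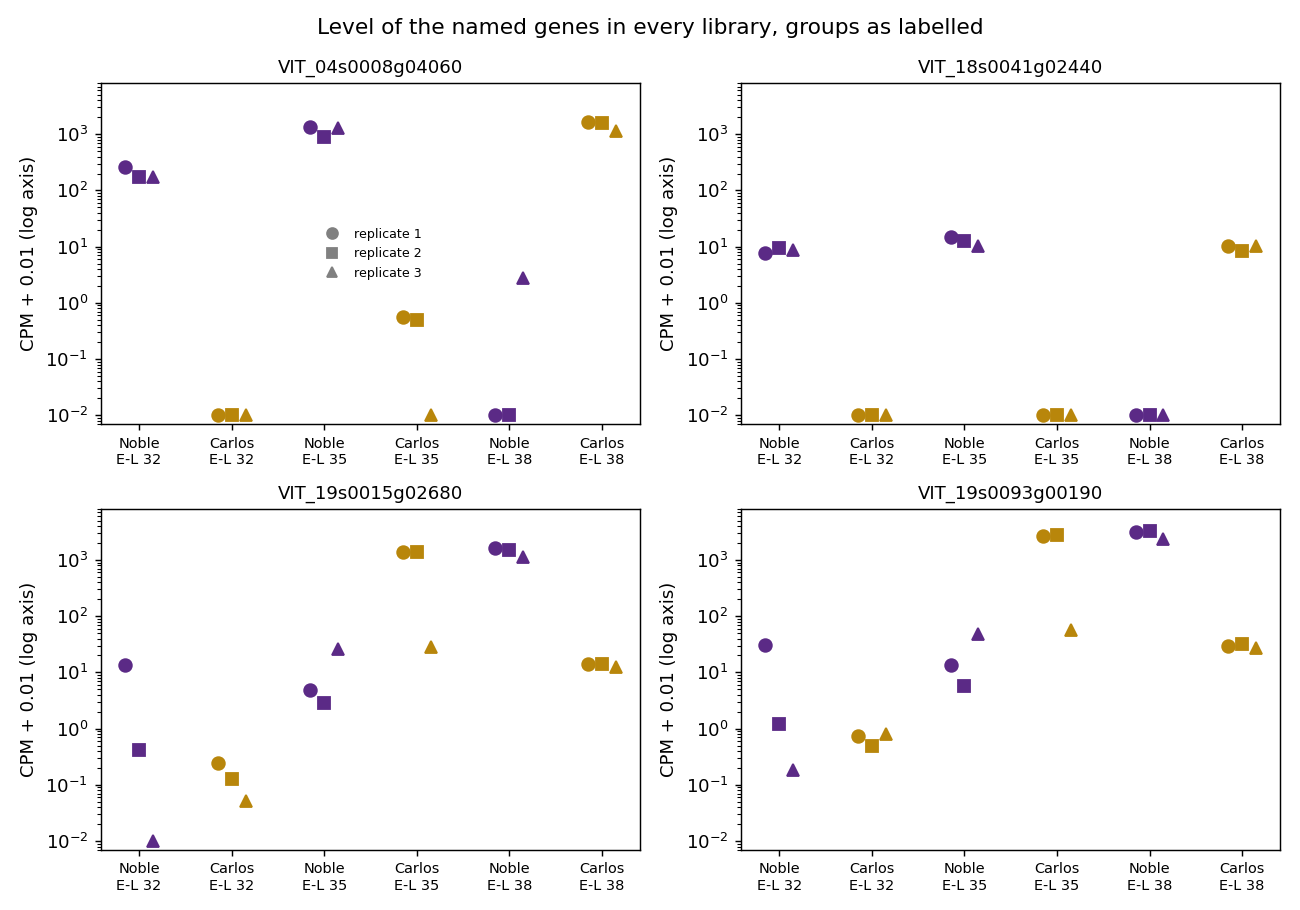
Level of the 4 named identifiers in each of the 18 libraries, as CPM plus 0.01 on a log axis, by group as labelled; each point is a library, its symbol gives the replicate number, and points at the bottom are libraries at 0. The 2 genes of the upper row are high in Noble at E-L 32 and E-L 35 and high under the Carlos label at E-L 38, and those of the lower row have Carlos replicate 3 at E-L 35 near the Noble level.

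Genes on in one cultivar and nearly off in the other were few at veraison. By limits set after the data were examined, at least 5 CPM in each library of a cultivar and a mean of at most 0.5 CPM in the other, 12 genes were on in Noble and 1 in Carlos. All of these were called (edgeR), which adds little because the limits select on the same values that the test uses. Without both set-apart libraries 14 were on in Noble and 8 in Carlos. At E-L 32 the same limits gave 125 genes on in Noble and 9 in Carlos. Of those 125, 2 were also among the 12 of E-L 35. At E-L 38, 17 genes were on under the Noble label and 17 under the Carlos label, and 6 of those under the Carlos label were among the 12 genes that were on in Noble at E-L 35.

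At E-L 32, where 4852 genes were called between Noble and Carlos (27.5%, edgeR), the difference ran mostly the same way as at E-L 35. The stages share no library. Of the genes called at E-L 35, 1384 were also called at E-L 32, which is 41.2% of the E-L 35 calls and 28.5% of the E-L 32 calls. Of these, 1039 (75.1%) had the same direction, 527 higher in Noble and 512 higher in Carlos, and 345 had the opposite one. Among the 91 genes at 16-fold or more higher in Noble at E-L 35, 43 were called higher in Noble at E-L 32, 4 were called lower and 44 were not called. Among the 79 on the Carlos side, 41 were called higher in Carlos at E-L 32 and 6 lower. Without both set-apart libraries 7425 genes were called at E-L 32, although none of its libraries was left out. Of the 3015 genes then called at both stages, 61.6% had the same direction. Of 177 genes on the Noble side at 16-fold or more in that fit, 86 were called alike at E-L 32 and 16 oppositely. Of the 138 on the Carlos side, 65 were called alike and 21 oppositely.

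The test of the difference itself asks whether the cultivar difference at veraison was another than at bunch closure. It called 3108 genes (17.6%, edgeR), 1534 with a more positive log2 difference of Noble over Carlos at E-L 35 and 1574 with a more negative one. With upper-quartile scaling the split was 1261 and 1918. Of the 1972 genes called at E-L 35 and not at E-L 32, 827 passed this test, so for the other 1145 a change in the difference was not shown. Of the 1039 genes called alike at both stages 110 passed it, as did the 345 with opposite directions. It called 5795 genes without both set-apart libraries and 4770 without Carlos replicate 3 alone.

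At E-L 38, with groups as labelled, the difference ran the other way from that at E-L 35, and with the labels exchanged it would run the same way. Of 1815 genes called at both stages, 54 (2.98%) had the same direction and 1761 had the opposite one, 903 higher in Noble at E-L 35 and 858 higher in Carlos at E-L 35. These 1815 genes are 54.1% of the E-L 35 calls and 43.9% of the E-L 38 calls. Without both set-apart libraries 6585 genes were called at E-L 38, although none of its libraries was left out. Of the 3264 genes then called at both stages, 12.0% had the same direction. The test of the difference between the stages called 5890 genes (33.4%, edgeR), among them 2938 of the 3356 genes called at E-L 35.

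Across the 3356 genes called at E-L 35 the log2 differences correlated at r = 0.46 with those at E-L 32 and at r = -0.79 with those at E-L 38, and across all genes tested at 0.20 and -0.55. The fit without both set-apart libraries gave 0.31 and -0.6 across its 5818 called genes, and 0.20 and -0.42 across all genes tested. Genes are not independent replicates, and each pair of stages shares no library but shares the fit. The pattern is also visible in the share of counts that the called genes took, which at E-L 35 is a description of the genes' choice. Genes higher in Noble at E-L 35 took 14.5%, 11.4% and 13.9% of counts in the Noble libraries and 7.35%, 7.32% and 5.71% in the Carlos libraries of that stage. At E-L 32 the same genes took 12.0% to 12.5% of Noble counts, against 11.2% to 11.3% of Carlos counts, and at E-L 38 they took 8.46%, 8.62% and 9.21% under the Noble label and 12.6%, 12.4% and 11.04% under the Carlos label. The groups did not overlap at either of these stages, and the higher label was Noble at E-L 32 and Carlos at E-L 38.

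**Figure D4:**
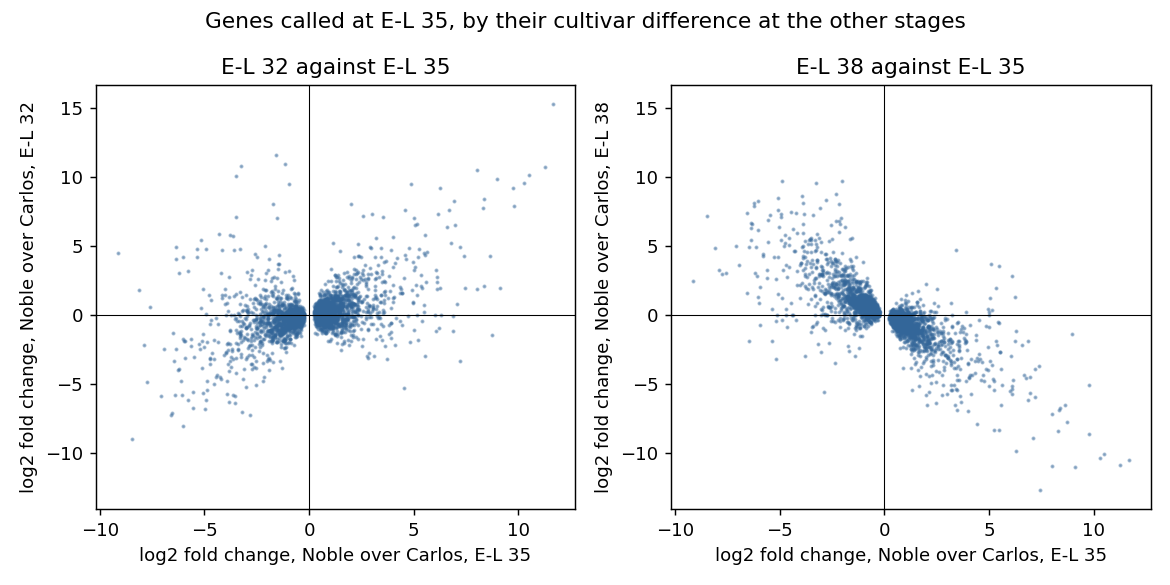
Log2 fold change of Noble over Carlos at E-L 32 (left) and, with groups as labelled, at E-L 38 (right), against that at E-L 35; each point is 1 of the 3356 genes called at E-L 35. With all 18 libraries in the fit, the points run from lower left to upper right with E-L 32 (r = 0.46) and from upper left to lower right with E-L 38 (r = -0.79).

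Genes that differed at veraison were also set against the change over the whole span, E-L 38 over E-L 32 averaged over both labels. This change compares no E-L 35 library and is the same whichever way the E-L 38 labels are read. The E-L 35 libraries still enter the shared fit, so which genes pass as risen or fallen depends partly on them. Over all genes tested 34.9% rose and 35.6% fell across the span. Among the 1722 genes higher in Noble at E-L 35, 42.2% rose and 30.9% fell. Among the 1634 genes higher in Carlos, 33.4% rose and 41.4% fell. With all libraries, then, the Noble side held more genes that rise with ripening and the Carlos side more that fall.

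This order was turned round by leaving out Carlos replicate 3. Without Carlos replicate 3 alone, 27.9% of 2598 genes higher in Noble rose and 49.0% fell, while 55.0% of 2346 genes higher in Carlos rose and 26.2% fell. Without both set-apart libraries 35.8% of the genes higher in Noble rose and 42.9% fell, and 48.1% of the genes higher in Carlos rose and 34.5% fell, over a background of 37.2% risen and 37.9% fallen. Without Noble replicate 2 alone the order was that of all libraries, with 45.9% risen and 27.7% fallen on the Noble side, as it was without Noble replicate 3 (38.9% and 33.2%), Carlos replicate 1 (44.9% and 27.8%) and Carlos replicate 2 (45.6% and 27.5%). Without Noble replicate 1 the Noble side held 36.6% risen and 36.4% fallen, so the lead of risen genes there also rests on that library. Carlos replicate 3 is the library at position 0.491 on the stage line, and its part in the result was measured only by leaving it out.

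**Figure D5:**
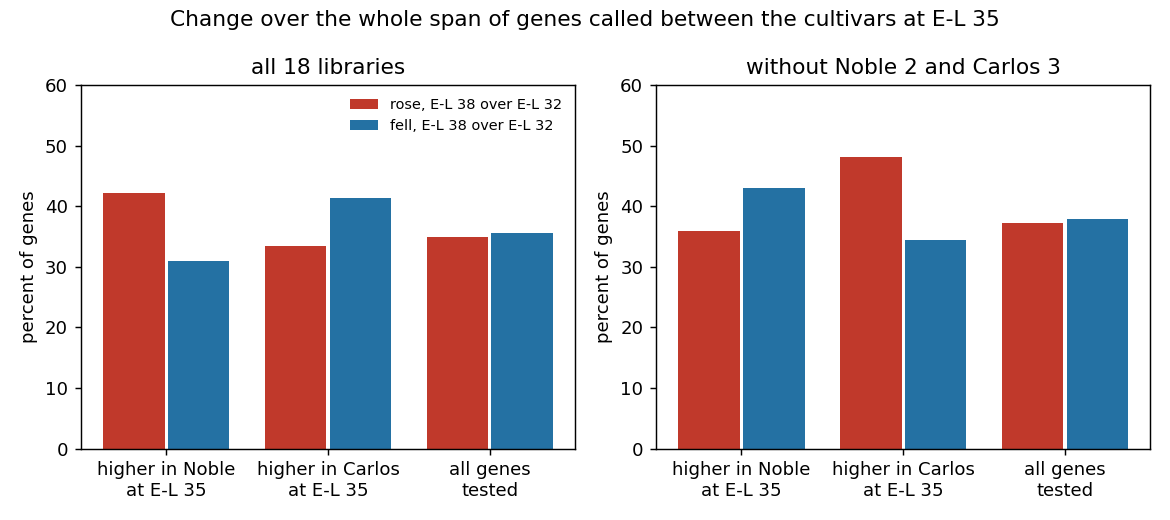
Percent of genes that rose or fell from E-L 32 to E-L 38, averaged over both labels (edgeR, adjusted p under 0.05), among genes higher in Noble at E-L 35, genes higher in Carlos at E-L 35 and all genes tested, with all 18 libraries (left) and without Noble replicate 2 and Carlos replicate 3 (right). Risen genes lead on the Noble side with all libraries, at 42.2% against 30.9%, and on the Carlos side without the 2 libraries, at 48.1% against 34.5%.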

How the data were processed

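STAR 2.7.6a and RSEM 1.3.3 were used, per the submitters' processing notes; no source used here gives the genome build, annotation or strand setting. Each library has a table of expected count, TPM and FPKM per identifier, per the file headers. The deposited expected counts divide reads that match several genes among them. The deposited TPM values are scaled by length to a common total, and were used to name the most abundant gene. The FPKM values deposited by the authors were not used. Transcript lengths (other columns) deposited by the authors were not used.

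Expected counts were rounded, filtered with filterByExpr and scaled by TMM. The test was edgeR 4.0.16 (R 4.3.3), quasi-likelihood, with 1 coefficient per group over 18 libraries and Benjamini-Hochberg adjustment over all genes tested. SE is the log2 fold change divided by the square root of F, and log2 CPM had a prior count of 2. Floors cover counting error only. Named genes are the 2 highest and 2 lowest fold changes among genes called with and without both set-apart libraries, with no overlap and a mean of at least 10 CPM. Alternatives were library sets, RLE and upper-quartile scaling, filters, DESeq2 1.42.0, limma-voom 3.58.1 and a replicate block. The groups, rules and lists were chosen with earlier results of these data known. Of 24 planned gene lists, 0 could be matched to the identifiers. On simulated counts over 17275 genes, 5.97% of genes changed 1.5-fold, 40.3% of those changed 2-fold and 71.2% of those changed 4-fold were recovered, and 5 of 17075 unchanged genes were called. The rate for simulated 2-fold changes was 20.9% without both set-apart libraries. Apart from the changed genes, every simulated library had the same mean profile, and none was made to stand apart. These rates therefore need not hold for the real libraries.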

Additional observations from a re-analysis of the deposited data

Results flagged for a closer look

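The cultivar difference at E-L 35 was set against that at the other stages by edgeR's test of the difference (log2 scale, SE, adjusted over all genes tested). Against E-L 38 as labelled it differed by 22.21 ± 1.71 for VIT_04s0008g04060 (adjusted p = 1.1e-06) and by 22.15 ± 0.63 for VIT_18s0041g02440 (adjusted p = 6e-08). The value for VIT_18s0041g02440 depends on the prior count of the fit, because it had 0 counts in Carlos at E-L 35 and under the Noble label at E-L 38. That for VIT_04s0008g04060 rests on few counts, 25 and 68, in those groups. It differed by -13.07 ± 2.21 for VIT_19s0015g02680 (adjusted p = 0.00039) and by -12.95 ± 2.21 for VIT_19s0093g00190 (adjusted p = 0.00042). Against E-L 32 it differed by -11.32 ± 2.38 for VIT_19s0015g02680 (adjusted p = 0.0047) and by -10.36 ± 2.16 for VIT_19s0093g00190 (adjusted p = 0.0045), with Noble E-L 32 replicate 1 at 13.4 and 31.2 CPM for these genes. For VIT_04s0008g04060 and VIT_18s0041g02440 a difference from E-L 32 was not shown (adjusted p = 0.51 and 1). The values against E-L 38 hold for the groups as labelled: the log2 fold changes of Noble over Carlos were 11.68 at E-L 35 and -10.53 at E-L 38 for VIT_04s0008g04060, 11.28 and -10.87 for VIT_18s0041g02440, -6.38 and 6.70 for VIT_19s0015g02680, and -6.34 and 6.61 for VIT_19s0093g00190. With the E-L 38 labels exchanged the signs at that stage would turn and the sizes would lie close to those at E-L 35, and whether they were exchanged was not tested.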

How the results depend on the processing

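The number of genes called at E-L 35 was 3356. It was 5818 without Noble replicate 2 and Carlos replicate 3 together, 5841 without these and Noble E-L 32 replicate 1, 449 with the 6 libraries alone, 6526 with the 4 libraries alone, and 1869 to 4944 with 1 library left out. It lay within 1.5 times of 3356 with other scalings and filters, DESeq2, limma-voom and the replicate block. The number whose cultivar difference was another at E-L 35 than at E-L 32 was 5795 without both libraries, 5252 without the 3, and 2125 to 4770 with 1 left out, against 3108. Against E-L 38 it was 7733 without both libraries, 7834 without the 3, and 5003 to 7079 with 1 left out, against 5890. The named genes kept their direction in each alternative that gave a fold change with an adjusted p. For the fit without both libraries this was fixed by the rule that chose them. Limma-voom gave log2 fold changes of 12.53 for VIT_04s0008g04060 and -5.67 for VIT_19s0093g00190, and DESeq2 gave no adjusted p for VIT_04s0008g04060. A pairing of libraries by replicate number was not shown: deviations of same-numbered libraries at E-L 35 correlated at 0.20, -0.23 and -0.07. Those of Noble replicate 2 and Carlos replicate 3 correlated at 0.25. Deviations within a group are not independent, so these values cannot decide whether the numbers pair libraries. With a replicate block 3014 genes were called at E-L 35, 2757 against E-L 32 and 5466 against E-L 38. The block ended no call of a named gene. Gene lists gave no value under any alternative, since no member was matched. With 3 libraries a group, simulated 1.5-fold changes were mostly missed, so small differences are not shown to be absent.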
